A study of Mus musculus with 4 samples.

Results

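ERK feedback genes, which growth factor signalling through the kinase ERK switches on and whose products act back on that signalling or carry it to the genome, were read on 4 mouse expression arrays. They are the Sprouty genes Spry1, Spry2 and Spry4, the related Spred1 and Spred2, the transcription factor genes Etv4 and Etv5, and the phosphatase genes Dusp4, Dusp5 and Dusp6. Members were all probe sets annotated to these 10 genes, out of 18193 genes named on the array. They numbered 28 of 45101 probe sets, and every probe set of these genes was kept whatever its level. The genes themselves were chosen with earlier results of these data known.

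The study set neural stem-like cells, made from other mouse cells with defined factors, beside neural stem cells of primary origin and fibroblasts, and its title names adult liver cells and B-lymphocytes as the cells converted. Total RNA of 4 populations was hybridised to Affymetrix Mouse Genome 430 2.0 arrays, 1 array each. MEF were mouse embryonic fibroblasts. NSC were neural stem cells of primary origin, iNSC_13F were induced neural stem cells made with 13 factors and iNSC_14F were induced neural stem cells made with 14 factors. The labels do not name the factors, nor which cell each induced population started from, nor strain or age. NSC and both induced populations grew in N2 medium with 20 ng/ml EGF, 20 ng/ml bFGF and laminin, while the medium of the fibroblasts is not stated in the sources used here. Cell type and medium therefore cannot be told apart in any comparison with MEF. With 1 array per population no SD and no test can be given, and no difference below has a replicate check. Because each RNA came from a whole population, more cells of a kind and more RNA per cell cannot be told apart.

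Receptor tyrosine kinases for FGF and EGF signal through the adaptor proteins FRS2 and GRB2 to RAS, RAF, MEK and ERK. ERK activity induces its own brakes: Sprouty and SPRED proteins dampen the steps from receptor to RAF, and dual-specificity phosphatases remove the activating phosphates from ERK. Transcripts of these genes and of the PEA3 factors ETV4 and ETV5 are widely used as readouts of FGF signalling, which together with EGF keeps cultured neural stem cells dividing.

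Promoter sequence is shown first for 3 members, chosen for their array orders. Dusp5 and Dusp6 encode phosphatases of the same family and stood in opposite order on the MEF and NSC arrays. Spry2 followed the array order of Dusp6 at the deposited scaling. RefSeq promoter windows of the GRCm38.p6 assembly covered 7 of the 10 members in 8 windows, Etv5 having 2 start sites. Windows for Spry4, Etv4 and Dusp4 were not used here. Each window is the 250 bases before the start of transcription, on the strand of the gene. Capitals mark matches to 5 motifs searched on both strands, namely the ETS motif CCGGAAG, the PEA3 motif AGGAAG, the AP-1 motif TGANTCA, the CRE TGACGTCA and the CArG box, which is the element bound by serum response factor. The Dusp5 window is chr19:53528895-53529144 on the plus strand, that of Dusp6 is chr10:99262981-99263230 on the plus strand and that of Spry2 is chr14:105896820-105897069 on the minus strand.
Dusp5: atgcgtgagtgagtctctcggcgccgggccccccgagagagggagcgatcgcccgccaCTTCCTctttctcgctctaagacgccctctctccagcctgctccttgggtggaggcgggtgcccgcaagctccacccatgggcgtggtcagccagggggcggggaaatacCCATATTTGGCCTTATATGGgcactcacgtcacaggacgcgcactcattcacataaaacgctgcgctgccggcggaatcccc
Dusp6: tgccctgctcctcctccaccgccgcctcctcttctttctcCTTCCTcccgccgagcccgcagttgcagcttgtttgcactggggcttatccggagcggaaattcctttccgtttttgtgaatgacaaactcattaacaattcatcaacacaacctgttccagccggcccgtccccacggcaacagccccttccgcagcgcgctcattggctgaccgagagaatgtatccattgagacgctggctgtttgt
Spry2: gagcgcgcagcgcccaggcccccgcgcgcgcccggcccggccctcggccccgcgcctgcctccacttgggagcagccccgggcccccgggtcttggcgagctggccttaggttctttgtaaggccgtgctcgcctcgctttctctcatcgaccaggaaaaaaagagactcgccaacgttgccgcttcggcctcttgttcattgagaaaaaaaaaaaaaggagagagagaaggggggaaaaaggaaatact

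Dusp5 held 2 adjacent CArG boxes, at 82 to 73 and 72 to 63 bases before the start, which did not overlap each other. Of all 32851 windows of that length, 1.47% held at least 1 CArG box. Dusp5 also held 1 PEA3 motif on the reverse strand at 192 to 187 bases before the start, and Dusp6 held 1 at 210 to 205 bases. Spred2 held 2 PEA3 motifs, and this short motif was present in 29.5% of all windows. None of the 5 motifs was found in the windows of Spry1, Spry2, Spred1 and Etv5. The ETS motif, the AP-1 motif and the CRE were in no member's window, and in 6.91%, 6.75% and 1.55% of all windows. A match is a string of letters and not a measured binding site.

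Values below are MAS5 signals, a linear brightness per probe set with no unit, and each gene is described by its brightest probe set unless another is named. The floor, below which a signal was treated as not measured, was 103.9, taken from sensory receptor genes (odorant, vomeronasal and taste). All 10 brightest probe sets were above it on every array. Of the 28 probe sets, 24 were above it on at least 1 array and 4 on none. Signals of different probe sets were not compared with each other. The cell type markers bore out the labelled populations in outline: 9 of 10 fibroblast markers were above the floor on MEF and 2 to 5 on the other arrays, with a summed signal of 182141 on MEF against 893 to 4043 elsewhere. Neural stem cell markers were above it for 10 of 10 on NSC, 9 on each induced array and 3 on MEF. No hepatocyte marker (of 5 measured) and no B lymphocyte marker (of 6) was above the floor on any array, and neither were 4 oligodendrocyte markers on MEF and NSC, with 1 on each induced array. Embryonic stem cells, which the source label names for all 4 samples, had 0, 0, 1 and 1 of 6 markers above it on MEF, NSC, iNSC_13F and iNSC_14F. Neuron markers numbered 2, 2, 3 and 2 of 6 and astrocyte markers 1, 3, 4 and 3 of 5 in the same array order.

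Sprouty proteins inhibit the path from receptor to RAF, and all 3 Sprouty genes were lowest on MEF. Spry1 gave a signal of 771 on MEF, 3659 on NSC, 5489 on iNSC_13F and 3549 on iNSC_14F. It was low on MEF alone, and NSC and iNSC_14F were 1.03-fold apart. Spry2, whose product also binds the ubiquitin ligase CBL, gave 889 on MEF, 5853 on NSC, 12338 on iNSC_13F and 8699 on iNSC_14F. Both induced arrays lay above NSC, and NSC lay 6.59-fold above MEF. The other Spry2 probe set, 1421656_at, read 94.7, 591, 690.4 and 790.5 on MEF, NSC, iNSC_13F and iNSC_14F, and so put MEF lowest as well but iNSC_14F rather than iNSC_13F highest.

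Spry4 covered the widest range of the 10 genes. Its signal was 354 on MEF, 3441 on NSC, 9827 on iNSC_13F and 2388 on iNSC_14F. The iNSC_13F array stood alone at the top, 2.86-fold above NSC and 27.8-fold above MEF, while iNSC_14F lay 1.44-fold below NSC. All 3 further Spry4 probe sets were highest on iNSC_13F. Probe set 1440867_at read 39.5, 487, 819.9 and 341 on MEF, NSC, iNSC_13F and iNSC_14F, and 1422021_at read 68.0, 250.2, 439.6 and 210.4. Both kept the order of the brightest one. The remaining probe set, 1422020_at, read 168 on iNSC_13F and was below the floor on the other arrays.

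SPRED proteins bring the RAS inhibitor neurofibromin to the membrane, and here the 2 Spred genes had different patterns. Spred1, the gene lost in the RASopathy Legius syndrome, gave 843 on MEF, 3820.2 on NSC, 1225 on iNSC_13F and 1229 on iNSC_14F. NSC alone was high, 3.11-fold above the next array. Both induced arrays were 1.00-fold apart and within 1.46-fold of MEF, so Spred1 was the only member whose induced signals lay at least 2-fold below NSC at the deposited scaling. Of its 8 probe sets, 2 were below the floor on every array, and each of the other 6 was highest on NSC. The next brightest, 1423161_s_at, read 811, 3126, 1089 and 1101 on MEF, NSC, iNSC_13F and iNSC_14F, and 1460116_s_at read 121, 699, 98.0 and 96.5, which put both induced arrays under the floor. Several of these probe sets were designed on the same transcript and are not independent readings.

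Spred2 gave 1432 on MEF, 3378 on NSC, 4239 on iNSC_13F and 4173 on iNSC_14F. MEF was the low array, and the other 3 lay within 1.25-fold of each other. Its probe set 1436892_at read 132, 199.6, 465 and 514 on MEF, NSC, iNSC_13F and iNSC_14F, which set the induced arrays 2.33-fold and 2.58-fold above NSC, farther than the brightest one did. Another, 1441415_at, passed the floor on iNSC_14F alone, at 128, and 2 more on none.

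ETV4 and ETV5 are ETS-family transcription factors that act downstream of FGF receptors. Etv5 gave 973 on MEF, 9128 on NSC, 24369.8 on iNSC_13F and 19057 on iNSC_14F. Each induced array was more than 2-fold above NSC, and NSC was 9.38-fold above MEF. Both other Etv5 probe sets kept the order iNSC_13F, iNSC_14F, NSC, MEF: 1420998_at read 1273, 752, 368 and 102 in that order, and 1450082_s_at read 5503, 4501, 2006 and 88.1. MEF was below the floor on both, so iNSC_13F was at least 12.3-fold higher than MEF on the former and at least 53.0-fold on the latter.

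Etv4 gave 239.6 on MEF, 462 on NSC, 583 on iNSC_13F and 1018 on iNSC_14F. It was the only member with its highest signal on iNSC_14F, 1.75-fold above iNSC_13F and 4.25-fold above MEF. Its dimmer probe set, 1443381_at, read 83.6, 165, 65.4 and 161 on MEF, NSC, iNSC_13F and iNSC_14F, and only NSC and iNSC_14F passed the floor. The Etv4 probe sets therefore disagree on whether iNSC_13F lay above NSC.

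The 3 phosphatase genes differed from each other in array order. DUSP6 is a cytoplasmic phosphatase selective for ERK. Dusp6 gave 3323 on MEF, 13693 on NSC, 23260.5 on iNSC_13F and 14381 on iNSC_14F. As with the Sprouty genes MEF was low, and NSC and iNSC_14F were 1.05-fold apart.

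DUSP5 is likewise selective for ERK but sits in the nucleus. Dusp5 gave 1627 on MEF, 155 on NSC, 1129.9 on iNSC_13F and 447 on iNSC_14F. MEF, the lowest array for 8 members, was highest here and NSC lowest, 10.5-fold apart, with NSC not far above the floor. Both induced arrays lay between, iNSC_13F within 1.44-fold of MEF and iNSC_14F 3.64-fold below MEF. The summed fibroblast markers were also highest on MEF and lowest on NSC, but on both induced arrays they stayed at most 4043 against 182141, and their part in the Dusp5 signal was not tested.

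DUSP4 is a nuclear phosphatase that acts on ERK and other MAP kinases. Dusp4 gave 2098 on MEF, 1300 on NSC, 3856 on iNSC_13F and 1698 on iNSC_14F. The iNSC_13F array was highest, and the other 3 lay within 1.61-fold of each other. Dusp4, Dusp5 and Dusp6 were each read by 1 probe set, as was Spry1, so no other probe set could be set beside them.

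**Figure D1:**
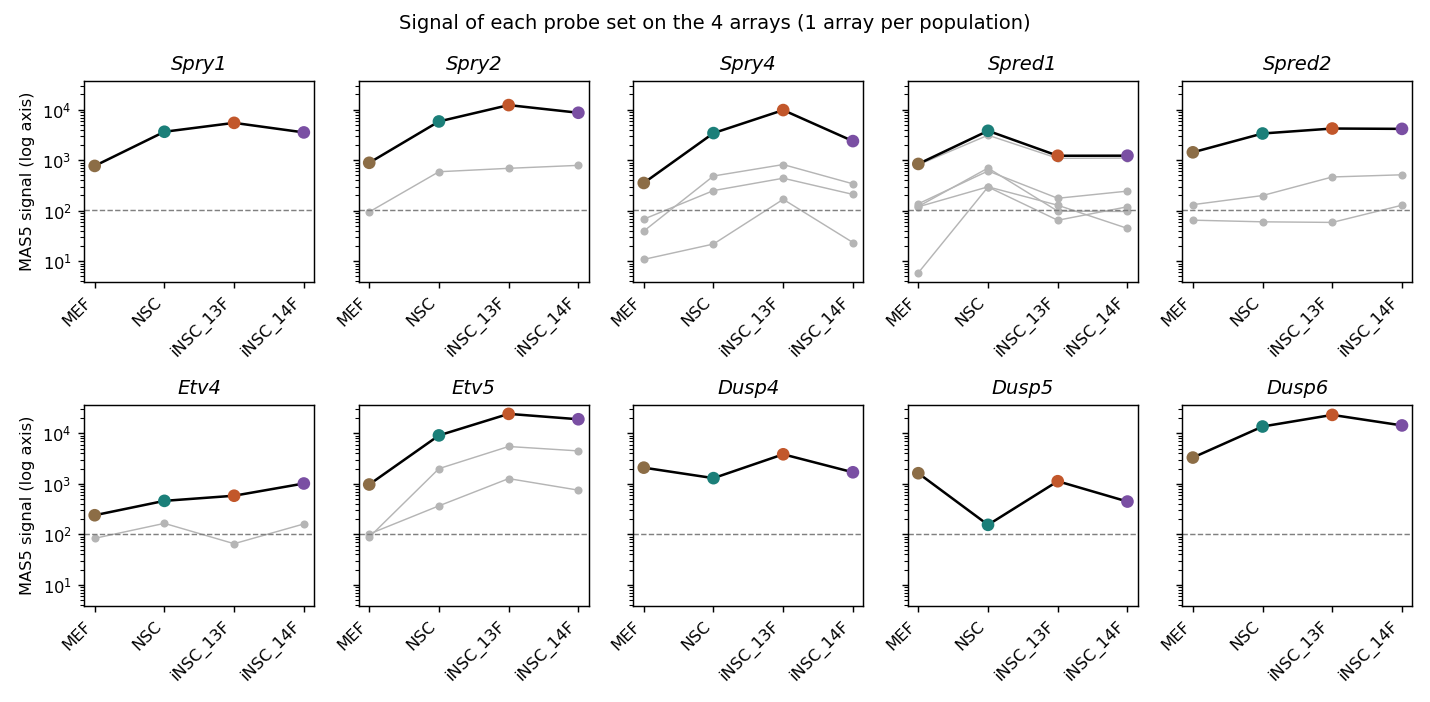
MAS5 signal (log axis) of each ERK feedback gene on the MEF, NSC, iNSC_13F and iNSC_14F arrays, 1 array per population. Coloured points joined in black are the brightest probe set, grey points the other probe sets above the floor on at least 1 array, and the dashed line the floor of 103.9; MEF is the lowest array for all but Dusp4 and Dusp5 among the brightest probe sets.

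No replicate gives a spread for these signals, so the distance between the induced arrays over all genes served as a yardstick. Among the 9311 genes measured above the floor by both, 95% lay within 2.32-fold. This range holds real differences between the induced populations as well as error. Against it, the step from MEF to the next array was larger for Spry1, Spry2, Spry4, Spred2, Etv5 and Dusp6, at 2.36-fold for Spred2 to 9.38-fold for Etv5. The steps among NSC, iNSC_13F and iNSC_14F were smaller for Spry1, Spry2, Spred2, Etv5 and Dusp6, so neighbouring arrays are not resolved there. Spry4 on iNSC_13F (2.86-fold above NSC) and Spred1 on NSC (3.11-fold above iNSC_14F) stood beyond it. For Dusp5 the steps from iNSC_13F to iNSC_14F (2.53-fold) and from iNSC_14F to NSC (2.89-fold) did too. No step in the order of Etv4 or Dusp4 passed it.

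Against fibroblasts, most members were higher in every neural population. On NSC, 7 of 10 were at least 2-fold higher than on MEF and 1 was at least 2-fold lower, where 19.9% and 17.5% of the 11492 measured genes were. The members' median difference was 2.11 on the log2 scale, or 4.32-fold, beside -0.01 for all genes. Dusp5 differed most, at 10.5-fold lower, and the largest differences upward were those of Spry4 (9.72-fold) and Etv5 (9.38-fold). With the median of its probe sets the log2 difference of Spry4 moved from 3.28 to 1.75 and that of Etv5 from 3.23 to 4.27. Etv4 was 1.93-fold higher and Dusp4 1.61-fold lower, the latter turning to 0.18 log2 higher when arrays were scaled to their hybridization controls.

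On iNSC_13F, 7 members were at least 2-fold higher than on MEF and 0 lower, beside 15.6% and 20.9% of 11770 genes. Their median was 2.19 on the log2 scale, or 4.55-fold, beside 0.09 for all genes. Spry4 was 27.8-fold and Etv5 25.0-fold higher, which placed them at rank 34 and rank 42 of all measured genes. The same choice moved Spry4 here from 4.80 to 2.53 and Etv5 from 4.65 to 5.73 on the log2 scale. Etv4 moved from 1.28 to 0.64, and 5 of 9 measured members were then at least 2-fold higher. Spred1, Dusp4 and Dusp5 lay within 2-fold of MEF.

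On iNSC_14F, 7 members were at least 2-fold higher than on MEF and 1 lower, beside 18% and 19% of 11572 genes. Their median was 2.10 on the log2 scale, or 4.29-fold, beside 0.10 for all genes. Etv5 was 19.6-fold and Spry2 9.79-fold higher, and Dusp5 was 3.64-fold lower. These 3 comparisons share the MEF array, so they are not separate evidence on its low signals.

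**Figure D2:**
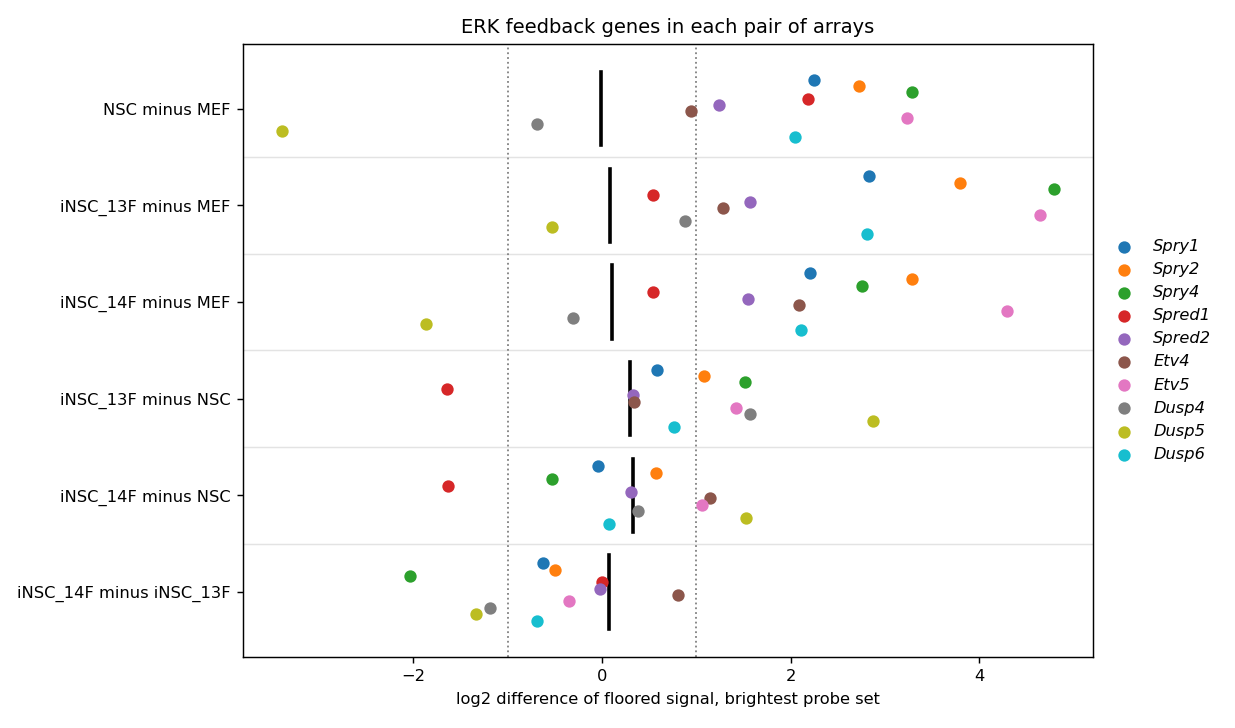
Log2 difference (horizontal axis, first array minus second) of the floored signal of each ERK feedback gene in the 6 pairs of arrays. Coloured points are genes, black ticks the median of all measured genes and dotted lines a 2-fold difference; in the 3 pairs with MEF, 7 of 10 genes lie right of the 2-fold line, while the signs of Spry1, Spry2, Spred2, Etv4, Dusp4 and Dusp6 in at least 1 pair with NSC, and of both Spred genes between the induced arrays, depend on how arrays are scaled.

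Against neural stem cells, the members split by induced population, and the signs of several depended on how arrays were scaled. On iNSC_13F, 5 of 10 were at least 2-fold higher than on NSC (Spry2, Spry4, Etv5, Dusp4 and Dusp5) and 1 lower (Spred1), beside 14.8% and 20.8% of 11180 genes. The median was 0.92 on the log2 scale beside 0.30 for all genes, a distance of 0.62. Dusp5 was 7.30-fold higher, at rank 22 of all measured genes, and Dusp4 2.97-fold. On iNSC_14F, 3 were at least 2-fold higher (Etv4, Etv5 and Dusp5) and 1 lower (Spred1), beside 16.9% and 19.3% of 10812 genes. The median of 0.35 was close to that of all genes, 0.33. Spry1, Spred2, Dusp4 and Dusp6 were within 1.31-fold of NSC on that array. With the median over each gene's probe sets, Spry2 and Spry4 (0.78) on iNSC_13F and Etv4 (0.55) on iNSC_14F were no longer 2-fold from NSC.

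Scaling bears on these comparisons with NSC. The 9 hybridization control probe sets, which read RNA added in known amounts, were 1.82-fold to 2.11-fold dimmer on NSC than on the other arrays. Scaling arrays to those controls moved the median of all genes to -0.65 for iNSC_13F and -0.45 for iNSC_14F relative to NSC, and to 0.78 for NSC relative to MEF. Under that scaling 1 member was at least 2-fold higher and 1 lower on iNSC_13F than on NSC, beside 1.3% and 38.26% of all genes. On iNSC_14F the counts were 0 and 2, beside 2.6% and 31.97% of all genes. Relative to the median of all genes, the members' median was then 0.50 higher on iNSC_13F and 0.07 lower on iNSC_14F, near the 0.62 and 0.02 at the deposited scaling. A single factor per array shifts both medians nearly alike, so this nearness is no check of either value.

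Some members kept their direction from NSC under the deposited, quantile and hybridization scalings. Spred1 stayed lower on both induced arrays, at -1.64 on each as deposited and -2.72 and -2.50 with hybridization scaling. Dusp5 stayed higher on both, at 2.87 and 1.53 as deposited and 1.79 and 0.67 with hybridization scaling. Etv5 stayed higher too, by 0.34 and 0.20 at the least. Spry4 was higher on iNSC_13F (1.51, or 0.44 with hybridization scaling) and lower on iNSC_14F (-0.53, or -1.39). Dusp4 kept its sign on iNSC_13F and Etv4 on iNSC_14F. By contrast Spry1, Spred2, Etv4 and Dusp6 turned from higher to lower on iNSC_13F, as did Spry2, Spred2, Dusp4 and Dusp6 on iNSC_14F.

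**Figure D3:**
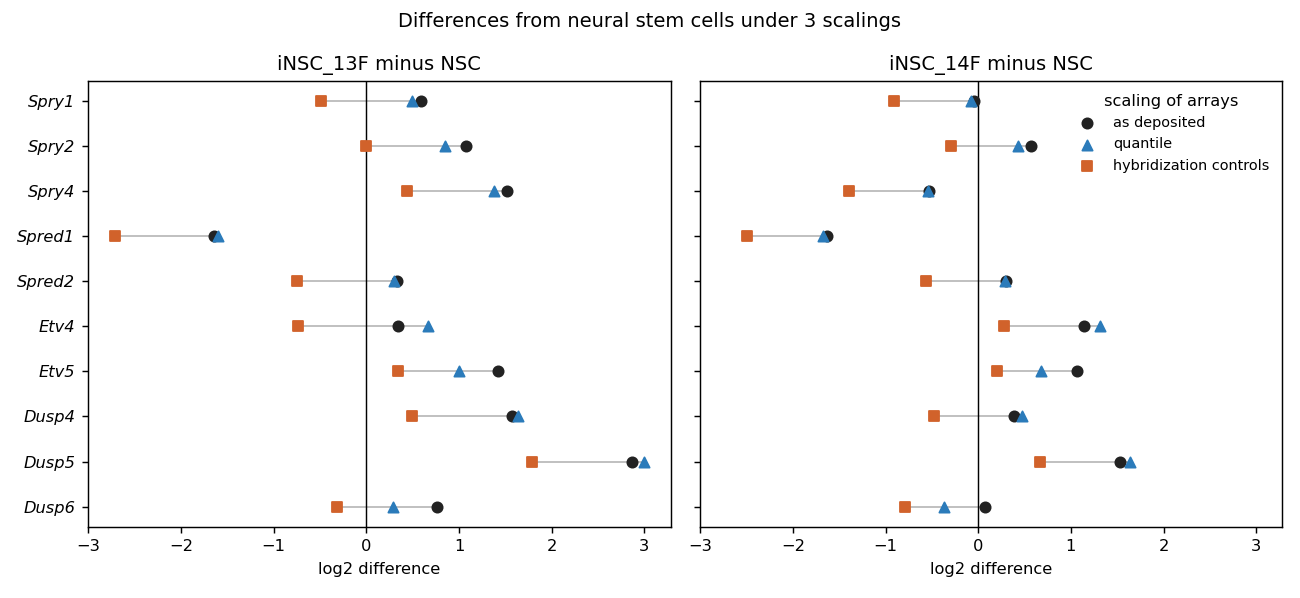
Log2 difference from NSC of each ERK feedback gene on iNSC_13F (left) and iNSC_14F (right), with arrays scaled as deposited (circles), by quantiles (triangles) or to hybridization controls (squares). Spred1 lies left of 0 and Dusp5 and Etv5 right of 0 in both panels under every scaling, while Spred2 and Dusp6 change sides in both.

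Between the induced populations, most members were lower with 14 factors than with 13. Compared with iNSC_13F, 0 members were at least 2-fold higher on iNSC_14F and 3 were at least 2-fold lower, beside 6.03% and 2.97% of 10809 genes. The 3 were Spry4 at 4.11-fold, Dusp5 at 2.53-fold and Dusp4 at 2.27-fold, at rank 35, rank 147 and rank 204 from the lowest of all measured genes. Spry4 and Dusp5 lay outside the range that held 95% of genes, but with the median of its probe sets Spry4 differed by -1.17, inside it. The median was -0.57 beside 0.07 for all genes, and the distance of -0.64 was the same with hybridization scaling and -0.54 with quantile scaling. Hybridization scaling multiplies each array by a single factor, which shifts both medians nearly alike, so its match is no check. Etv4 was 1.75-fold higher on iNSC_14F. The Spred genes were within 1.02-fold, and their sign depended on the scaling.

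**Figure D4:**
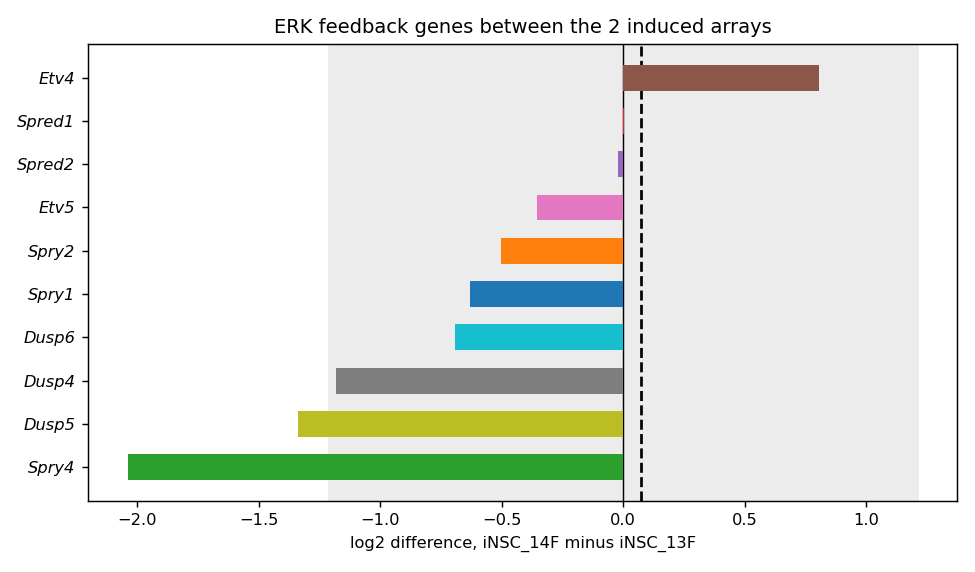
Log2 difference between the induced arrays (iNSC_14F minus iNSC_13F) for each ERK feedback gene at the deposited scaling. The grey band holds 95% of the 9311 genes that both arrays measured above the floor and the dashed line is the median of all genes; Spry4 and Dusp5 lie below the band and Etv4 is the gene farthest to the right, while the signs of Spred1 and Spred2 change with the scaling.

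Array orders were shared within the set. Spry2, Spred2, Etv5 and Dusp6 ran iNSC_13F, iNSC_14F, NSC, MEF from high to low, an order found in 9.01% of the 9447 genes with 4 different values. Spry1 and Spry4 ran iNSC_13F, NSC, iNSC_14F, MEF, found in 1.94%. Spred1, Etv4, Dusp4 and Dusp5 each had an order no other member had, found in 4.73%, 11.8%, 4.09% and 5.64% of genes. Many of these steps are small, as the yardstick above shows, and the orders are those at the deposited scaling. With hybridization scaling NSC lay above iNSC_14F for Spry2 (-0.29 for iNSC_14F minus NSC). It lay above both induced arrays for Spred2 and Dusp6, and above iNSC_13F for Spry1 (-0.49 for iNSC_13F minus NSC). Spry4, Etv5 and Dusp5 kept their orders under the deposited, quantile and hybridization scalings.

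Genes whose signals ran most like those of the 3 widest-ranging members were looked for among 7650 genes, by the Euclidean distance of their centred log2 signals over the 4 arrays. Nearest to Spry4 were Plxnb3 (a plexin), at 0.50, Rflna at 0.91 and Pald1 at 0.99, and only these 3 lay within a distance of 1. Nearest to Etv5 were Coro2b (a coronin) at 0.30, Selenop (a selenium transport protein) at 0.32 and Ptgds (a prostaglandin D synthase) at 0.34, with 45 genes within 1. Nearest to Spry2 were Dennd2a at 0.17, Camkk2 (a calcium-dependent kinase) at 0.29 and Rprm at 0.31, with 108 within 1. With 4 points per gene such likeness is easily met.

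A further list held 21 genes taken as other feedback genes, and whether ERK switches each of them on was not tested. Between NSC and MEF 18 were measured, 2 at least 2-fold higher and 7 lower on NSC, beside 19.9% and 17.5% of all genes. Their median was -0.47, which turned to 0.41 with hybridization scaling, beside -0.01 and 0.78 for all genes. On iNSC_13F 2 of 19 were higher and 11 lower than on MEF, beside 15.6% and 20.9% of all genes. On iNSC_14F 1 of 18 was higher and 9 lower, beside 18% and 19%. The medians were -1.13 and -0.82, beside 0.09 and 0.10 for all genes. Among the listed genes, Errfi1, a feedback inhibitor of the EGF receptor, read 5087 on MEF, 523 on NSC, 1273 on iNSC_13F and 1089 on iNSC_14F. Like Dusp5 it was highest on MEF and lowest on NSC. Socs3, a cytokine signalling inhibitor, read 1205, 192, 419.9 and 107 on MEF, NSC, iNSC_13F and iNSC_14F. Rasa1 and Rasa2, GTPase activators that switch RAS off, were high on MEF and NSC and low on both induced arrays, at 1611, 2924, 289 and 267 for Rasa1 and 540.5, 804, 71.1 and 56.8 for Rasa2 in the same array order.

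Receptors and ligands upstream of the members were read in the same way. Of 13 receptor genes, 10 were measured between NSC and MEF. At least 2-fold higher on NSC were 3 of them, and 4 were lower, beside 19.9% and 17.5% of all genes. The FGF receptor gene Fgfr3 read 161 on MEF, 1017 on NSC, 2080.04 on iNSC_13F and 7307 on iNSC_14F. It was lowest on MEF, as the Sprouty genes were, but highest on iNSC_14F. The other FGF receptor genes above the floor on MEF were lowest on NSC at the deposited scaling. The EGF receptor gene Egfr read 747, 2749.6, 519.5 and 516 on MEF, NSC, iNSC_13F and iNSC_14F, so that NSC alone was high, as for Spred1. Pdgfra was above the floor on MEF (223) and NSC (589) only, and Pdgfrb on MEF only (13144), at least 126-fold above each other array.

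Of 16 ligand genes, 9 were measured between NSC and MEF. At least 2-fold higher on NSC were 2 of them, and 3 were lower, beside 19.9% and 17.5% of all genes. Hbegf, which encodes an EGF receptor ligand, read 10274 on MEF, 611 on NSC, 11304 on iNSC_13F and 574 on iNSC_14F. It was high on MEF and iNSC_13F, the arrays on which Dusp5 was also highest, and it was 19.7-fold lower on iNSC_14F than on iNSC_13F. Dusp4 was highest on iNSC_13F too, but its MEF signal was within 1.61-fold of those on NSC and iNSC_14F. Fgf1 read 112, 577, 941 and 859.8 on MEF, NSC, iNSC_13F and iNSC_14F. It was lowest on MEF, as the Sprouty genes were. Fgf7 (923) and Ereg (797) were above the floor on MEF alone.

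Components of the signalling cascade, from receptor adaptors to kinases activated downstream of ERK, were measured for 17 of 25 genes in every pair. Between the induced arrays 0 of the 17 were at least 2-fold higher and 0 lower, beside 6.03% and 2.97% of all genes. Between NSC and MEF 4 of them were at least 2-fold higher and 4 lower, beside 19.9% and 17.5% of all genes. Rps6ka3, which encodes a kinase activated by ERK, read 813 on MEF, 2511 on NSC, 168 on iNSC_13F and 209 on iNSC_14F, and Sos1, an exchange factor that loads RAS, read 709.8, 1351, 197 and 392. Both were highest on NSC and lowest on iNSC_13F. Rras2 and Shc1 were highest on MEF, at 4498 and 895, and lay between 179.9 and 819.6 elsewhere.

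Genes taken as other targets of ERK numbered 27, and whether ERK switches each of them on was not tested. Between iNSC_13F and NSC 23 were measured. On iNSC_13F 10 were at least 2-fold higher and 0 lower, beside 14.8% and 20.8% of all genes. Their median was 0.70 beside 0.30 for all genes, and with hybridization scaling it turned to -0.36 beside -0.65. On iNSC_14F 5 of 21 were higher and 1 lower than on NSC, beside 16.9% and 19.3% of all genes. Between the induced arrays 2 of 23 were higher and 5 lower on iNSC_14F, beside 6.03% and 2.97%. Their median was -0.46 beside 0.07 for all genes. Against MEF, NSC had 2 of 25 higher and 12 lower, beside 19.9% and 17.5%. Fosl2, an AP-1 subunit, read 5331 on MEF, 131 on NSC, 1299 on iNSC_13F and 835 on iNSC_14F, the same order as Dusp5, and the urokinase receptor gene Plaur (1929, 123, 278 and 190) ran likewise. Ccnd1, which encodes cyclin D1, read 3266, 19955, 29677 and 20293 on MEF, NSC, iNSC_13F and iNSC_14F, in the order of Dusp6. Egr2 (3785, 626, 425 and 673) was highest on MEF and within 1.58-fold among the others.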

How the data were processed

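Total RNA of 4 samples was measured on Affymetrix Mouse Genome 430 2.0 arrays, 1 per group, and each sample took its group from the cell type label. The deposited values are array intensities, 1 linear signal per probe set, for which the submitters' processing notes name MAS5 with no version. The deposited signals had a 2% trimmed mean of 500 on each array, so no further scaling was applied.

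Probe sets were named from the platform annotation, updated by gene ID to GRCm38.p6 names. One gene was named for 34945 of 45101 probe sets, 34741 of them matched by ID; 932 named several genes, 9160 none and 64 were controls. Each gene was represented by the probe set of highest mean log2 signal. The floor, 103.9, was the highest over arrays of the 95th percentile of 86 odorant, vomeronasal and taste receptor probe sets, and lower signals were set to it before log2. A gene counted as measured in a pair when either array was above it, and 10561, 9854, 10164 and 9956 genes were above it on MEF, NSC, iNSC_13F and iNSC_14F. Precision is limited by signal over background and by 1 array per group. All 6 pairs were compared by a rule of size, a difference of 2-fold or more in a measured gene, and no test was run because no group has replicates.

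All members were named, and from each pathway list up to 4 genes by the range of log2 signal, plus the 3 genes of nearest pattern for the 3 members of widest range. The members, lists and rules were chosen with earlier results of these data known. Alternatives were quantile normalization, scaling to 9 hybridization controls, floors at percentiles 75 and 99, a pseudocount of 16 in place of the floor, median values over each gene's probe sets, omission of probe sets that can match several transcripts, and asking for both arrays above the floor. Scripts used Python 3.11.15, numpy 2.4.6 and pandas 2.3.3 and were tested on simulated data. Protein sequences were not used here.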

Additional observations from a re-analysis of the deposited data

How the results depend on the processing

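Of 18 summary values (the members' median and the counts at least 2-fold higher and lower in each of 6 pairs), all 18 stayed within 1.5-fold with either other floor, with no floor and a pseudocount of 16, without probe sets that can match several transcripts, and with both arrays above the floor. These alternatives could hardly have moved them, so this is little check. Every member's brightest probe set was above the floor on all arrays, and none was of the omitted kind. Scaling to hybridization controls moved 7. The median became 2.98 for NSC against MEF, -0.16 for iNSC_13F against NSC and -0.52 for iNSC_14F against NSC. The count higher became 1 for iNSC_13F against NSC, 0 for iNSC_14F against NSC and 1 for iNSC_14F against iNSC_13F, and the count lower became 2 for iNSC_14F against NSC. Quantile normalization moved 1, the count higher for iNSC_13F against NSC, to 3. Median values over each gene's probe sets moved that count to 3 and the median for iNSC_14F against MEF to 1.36. The scaling of the NSC array acts on every gene in its 3 comparisons. Of 60 member differences, 30 moved by at least 1.5-fold with hybridization scaling, 14 of 57 with the median of probe sets, and 0 under the other alternatives. Among those others, only quantile normalization could have moved them much. No paired analysis was possible because each group has 1 array. Without replicate arrays, no difference here can be separated from the error of a single array, least of all for Etv4 and for Dusp5 on NSC, whose signals were nearest the floor.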
